A study of Mus musculus with 6 samples.

Results

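The Fc receptors of the mouse were described in microglia, the resident macrophages of the brain, from animals with and without the microRNA gene Mir137. The group comprises 6 of the 24411 gene symbols in the count table, chosen by name: Fcgr1, Fcgr2b, Fcgr3, Fcgr4, Fcer1g and Fcgrt. All 6 passed the filter on low counts, which left 13403 genes for testing. RNA was sequenced from primary microglia of C57BL/6J mice aged 8 weeks, in 3 libraries from Mir137 knockout mice (labelled gKO) and 3 libraries from wild-type mice (labelled gWT). No treatment was given in the labels, and no other allele. The labels do not assign the libraries to separate animals, so each p-value here reflects only how these 6 libraries vary, and that variation may be technical. The comparison asks how the transcriptome of microglia differs when Mir137 is lost.

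Receptors for the constant part of immunoglobulin G, called Fc gamma receptors, let macrophages bind particles and immune complexes coated with antibody. Activating receptors signal through the gamma chain encoded by Fcer1g, whose tyrosine motif recruits the kinase Syk and starts engulfment, whereas the receptor encoded by Fcgr2b carries an inhibitory motif that recruits phosphatases and dampens the response. The neonatal Fc receptor encoded by Fcgrt works differently, inside acidic endosomes, where it pairs with beta-2 microglobulin and returns antibody to the cell surface.

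The 6 genes lie at 3 places in the GRCm38 genome. Fcgr2b (chromosome 1, 170958617 to 170976547), Fcgr4 (chromosome 1, 171018920 to 171029761), Fcgr3 (chromosome 1, 171051174 to 171064935) and Fcer1g (chromosome 1, 171229572 to 171234365) are neighbours in 1 cluster. Fcgr1 lies on chromosome 3, from 96282909 to 96293969, and Fcgrt on chromosome 7, from 45092990 to 45103851. Fcgr4 is on the plus strand and the other 5 are on the minus strand.

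The deleted microRNA is shown first because its seed gives the site that was searched for in the members. The more studied of its mature products, from RefSeq on GRCm38.p6 (chromosome 3, 118433901 to 118433923), reads as follows, with bases 2 to 8, the seed, in capitals.
mmu-miR-137-3p: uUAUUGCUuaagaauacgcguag
The complement of the seed, AGCAATA, was searched in the annotated 3′ UTR of the longest coding transcript of each member on the transcript's own strand, and 0 of 6 held it. Of 20940 genes with such a UTR, 2014 held it, which is 9.62%. The Fc receptor UTRs ranged from 256 bases in Fcgrt to 2397 bases in Fcgr2b. Shorter or other matches to the seed, and other transcripts of these genes, were not searched.

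A second sequence matters for how the members were counted. The coding parts of Fcgr2b and Fcgr3 were identical at 87.5% of 785 aligned bases, whereas the other pairs among Fcgr1, Fcgr2b, Fcgr3 and Fcgr4 were identical at 67.9% to 69.9%. The longest run the 2 transcripts share is 129 bases of coding sequence, at bases 402 to 530 of the longest Fcgr2b transcript and 313 to 441 of that of Fcgr3. It is printed here because a read from it cannot be assigned to either gene.
shared run of Fcgr2b and Fcgr3: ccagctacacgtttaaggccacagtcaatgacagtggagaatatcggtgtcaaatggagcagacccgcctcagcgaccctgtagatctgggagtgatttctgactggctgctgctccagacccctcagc
In the genome it crosses an intron in both genes, spanning 170966674 to 170968081 in Fcgr2b and 171054167 to 171057792 in Fcgr3 (chromosome 1, minus strand).

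Of the 1298 windows of 50 bases in the longest Fcgr3 transcript, 166 (12.8%) also occurred in Fcgr2b. Of the 3495 windows of the longest Fcgr2b transcript, 397 (11.4%) occurred in another gene, those same 166 in Fcgr3 and the others in many unrelated genes, between bases 2425 and 2741, beyond the coding part. Fcgr1, Fcgr4, Fcer1g and Fcgrt had 0 windows in common with any other annotated gene. The deposited counts show the same division. Fcgr2b and Fcgr3 had counts that were not whole numbers in 6 of 6 libraries, and the other 4 members had whole counts in all 6. The sum of Fcgr2b and Fcgr3 was whole in every library, within 0.001 of a count. The split between Fcgr2b and Fcgr3 is therefore an estimate, while their sum is not affected by it.

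Facts of the whole series that touch these genes are few. The libraries held 14603882 to 17652977 rounded counts. Mir137 had 0 counts in all 6 libraries. A microRNA precursor is poorly captured in such libraries, so this checks nothing about the genotype labels. The library labelled gKO replicate 3 stood apart. Over 13329 genes, the shorter the transcript, the higher this library was relative to the mean of all 6 (Spearman rho -0.45 with length, across genes, which are not independent replicates), whereas rho was -0.01 to 0.25 in the other 5. Each Fc receptor result is therefore given with and without it. Xist, expressed from the inactive X chromosome of females, had 0, 0 and 8 counts in gKO against 2519, 2000 and 1830 in gWT, while the Y-linked gene Ddx3y had 1220 to 1522 counts in all 6. A difference in the sex of the animals and the genotype cannot be told apart.

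The labelled cell type was checked on markers. The summed level of 12 microglial markers was 47795 to 52439 CPM in gKO and 47166 to 50755 CPM in gWT, where CPM is the count scaled to the library's total by the TMM method, here and throughout. Markers of lymphocytes were low: the B and plasma cell list summed to at most 57.9 CPM and the T and NK cell list to at most 10.6 CPM in any library. Mast cell and basophil genes reached at most 14.1 CPM, with Fcer1a, the ligand-binding chain of the IgE receptor, at 0 counts in all 6 libraries. EdgeR called 0 of the 2 tested genes in each of these 3 lists, and 1 of them, Hdc of the mast cell list, had an unadjusted p under 0.05. DESeq2 called 1 gene of the mast cell list higher, Prss34, which edgeR did not test. It had 14, 13 and 8 counts in gKO and 0 in every gWT library. Neutrophils carry several Fc receptors themselves, and their markers moved with genotype. The 13 neutrophil genes summed to 930 to 1356 CPM in gKO and 591 to 705 CPM in gWT, with no overlap.

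In microglia lacking Mir137, no Fc receptor transcript passed the threshold over the whole table. EdgeR called 0 of 6 members higher and 0 of 6 lower at an adjusted p under 0.05, where it called 0.395% of all tested genes higher and 0.231% lower. By the same test 3 members were higher at an unadjusted p under 0.05, namely Fcgr3, Fcgr4 and Fcer1g, and 0 lower, against 5.16% and 5.74% of all tested genes. DESeq2, limma-voom, and limma-voom with sample weights also called 0 of 6, where they called 2.77%, 0.634% and 3.08% of all genes in either direction. Without gKO replicate 3, edgeR called Fcer1g higher and Fcgr1 and Fcgr2b lower, where it called 3.99% of all genes higher and 3.82% lower. The same shares are the background for every list given below without that library. In all 6 libraries the 6 members had a median log2 fold change of 0.31, against 0.01 over all tested genes. Without gKO replicate 3 that median fell to 0.08, against -0.02 over all tested genes. In bulk RNA, fewer cells of a type and less RNA per cell cannot be told apart.

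Fcer1g encodes the common gamma chain that activating Fc receptors need for surface expression and signalling. It had 211, 218 and 465 CPM in gKO replicates 1, 2 and 3, and 169, 182 and 185 CPM in the gWT replicates. Every gKO library lay above every gWT library, and gKO replicate 3 lay far above its group. The groups did not overlap in 4 of the 6 members, 3 higher and 1 lower in gKO, and in 21.3% of all tested genes in either direction. The log2 fold change was 0.74 (SE 0.29), with an edgeR adjusted p of 0.409. With gKO replicate 3 left out it was 0.25 (SE 0.07) with an edgeR adjusted p of 0.0452, so the size fell while the call appeared.

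Tyrobp, which encodes the sister adaptor DAP12, gives a comparison within each library. It had 321, 332 and 654 CPM in gKO and 354, 490 and 470 CPM in gWT, with a log2 fold change of -0.01 (SE 0.28, edgeR adjusted p = 0.997). Like Fcer1g, it was highest in gKO replicate 3. Scaled per transcript length as TPM, which divides each count by transcript length before scaling, the ratio of Fcer1g to Tyrobp was 0.563, 0.561 and 0.607 in gKO and 0.409, 0.317 and 0.337 in gWT. Every gKO library lay above every gWT library in this ratio, including the one that stood apart. It has no test. EdgeR called Tyrobp lower when gKO replicate 3 was left out (log2 fold change -0.43, edgeR adjusted p = 0.0494).

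Fcgr3 encodes a low-affinity activating receptor for IgG that works with the gamma chain. It had 507, 468 and 776 CPM in gKO and 379, 418 and 436 CPM in gWT, with the groups again apart. The log2 fold change was 0.51 (SE 0.20, edgeR adjusted p = 0.405), or 1.42-fold. It was 0.24 (SE 0.07) without gKO replicate 3, with an edgeR adjusted p of 0.0562.

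Fcgr4 encodes the other activating receptor of the chromosome 1 cluster, known in mice for binding IgG2a and IgG2b on monocytes, macrophages and neutrophils. It was the scarcest member, with 138 to 339 counts per library. It had 11.5, 13.9 and 24.0 CPM in gKO and 8.13, 11.5 and 10.1 CPM in gWT. The lowest gKO library lay above the highest gWT library by less than the rounding of these values. The log2 fold change was 0.73 (SE 0.32, edgeR adjusted p = 0.457), and 0.34 (SE 0.25, edgeR adjusted p = 0.465) without gKO replicate 3.

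Neutrophil genes are given beside these values because neutrophils express the same receptors. EdgeR called 2 of the 13 tested neutrophil genes higher, the granule genes Ltf and Mmp9, with a median of 1.11, and 13 of 13 were positive. With all 6 libraries, DESeq2 and limma-voom with sample weights each called 7 higher, and limma-voom called 2. Leaving out gKO replicate 3, edgeR called 7 higher and the median was 0.88. The 3 genes whose level over the 6 libraries most resembled Fcgr4 were S100a9 and Wsb1 (Pearson r of 0.995 each) and Snx5 (0.993). S100a9 is in the neutrophil list, whereas Wsb1 and Snx5 are not. These 6 points share the excess of gKO replicate 3, so the likeness is a description only. Monocytes carry Fcgr1 and Fcgr4 too. EdgeR called 3 of 13 monocyte genes higher, Nr4a1, Chil3 and Hp, with a median of 0.75, and 0 lower. At an unadjusted p under 0.05, 2 were lower, Fn1 (0.501-fold) and Ace (0.672-fold), and limma-voom with sample weights called Fn1 lower. Leaving out gKO replicate 3, 4 monocyte genes were called higher and 0 lower, while with all libraries the summed level of the list was 743 to 919 CPM in gKO and 753 to 1004 CPM in gWT. Much of that sum came from Nr4a1 and Fn1, which moved in opposite directions. Their means were 319 and 277 CPM in gKO and 101 and 552 CPM in gWT. Border macrophage genes had a median of 0.17 with 0 of 10 called by edgeR, DESeq2 or limma-voom with all 6 libraries and 0 at an unadjusted edgeR p under 0.05, and a sum of 2479 to 3701 CPM in gKO and 3336 to 3440 CPM in gWT. When gKO replicate 3 was left out, edgeR called Mrc1 higher (0.29) and Siglec1 lower (-0.60). The part of RNA from these cells in the Fc receptor values was not tested.

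Fcgr1 went the other way. It encodes the high-affinity IgG receptor, known as CD64, a marker of macrophages. It had 265, 225 and 291 CPM in gKO and 292, 317 and 339 CPM in gWT. All gKO libraries were below all gWT libraries, by a narrow margin between gKO replicate 3 and gWT replicate 1. The log2 fold change was -0.28 (SE 0.14), with an edgeR adjusted p of 0.531. It was -0.37 (SE 0.08) without gKO replicate 3, with an edgeR adjusted p of 0.0152. Fcgr1 was negative under all 16 alternatives, between -0.39 and -0.19.

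Fcgr2b encodes the only inhibitory receptor of the group. It had 158, 160 and 276 CPM in gKO and 175, 215 and 214 CPM in gWT. The first 2 gKO libraries were below all gWT libraries, and gKO replicate 3 was above all of them. The log2 fold change was -0.03 (SE 0.23, edgeR adjusted p = 0.982). In the fit without gKO replicate 3 it was -0.35 (SE 0.09), with an edgeR adjusted p of 0.0309. The direction turned to 0.11 without gKO replicate 1, to 0.10 without gKO replicate 2, and to 0.02 without gWT replicate 2 or 3.

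Fcgrt, the neonatal Fc receptor, had 432, 408 and 602 CPM in gKO and 429, 471 and 429 CPM in gWT. The groups overlapped. The log2 fold change was 0.12 (SE 0.17, edgeR adjusted p = 0.859), and -0.09 (SE 0.07, edgeR adjusted p = 0.494) without gKO replicate 3. B2m, the light chain that Fcgrt and the class I molecules require, had 907, 860 and 2138 CPM in gKO and 926, 1098 and 1056 CPM in gWT (log2 fold change 0.34, edgeR adjusted p = 0.777). Endothelial cells express Fcgrt as well, and their markers moved with genotype. The endothelial and mural list summed to 455 to 603 CPM in gKO and 915 to 1187 CPM in gWT, with 2 of 15 tested genes called lower by edgeR (Cldn5 and Acta2) and a median of -0.89. DESeq2 called 5 lower, and edgeR without gKO replicate 3 called 10 lower, with a median of -0.66. Its part in the Fcgrt value was not tested. The TPM ratio of Fcgrt to B2m was 0.345 and 0.343 in gKO replicates 1 and 2 and 0.204 in replicate 3, against 0.294 to 0.336 in gWT.

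**Figure D1:**
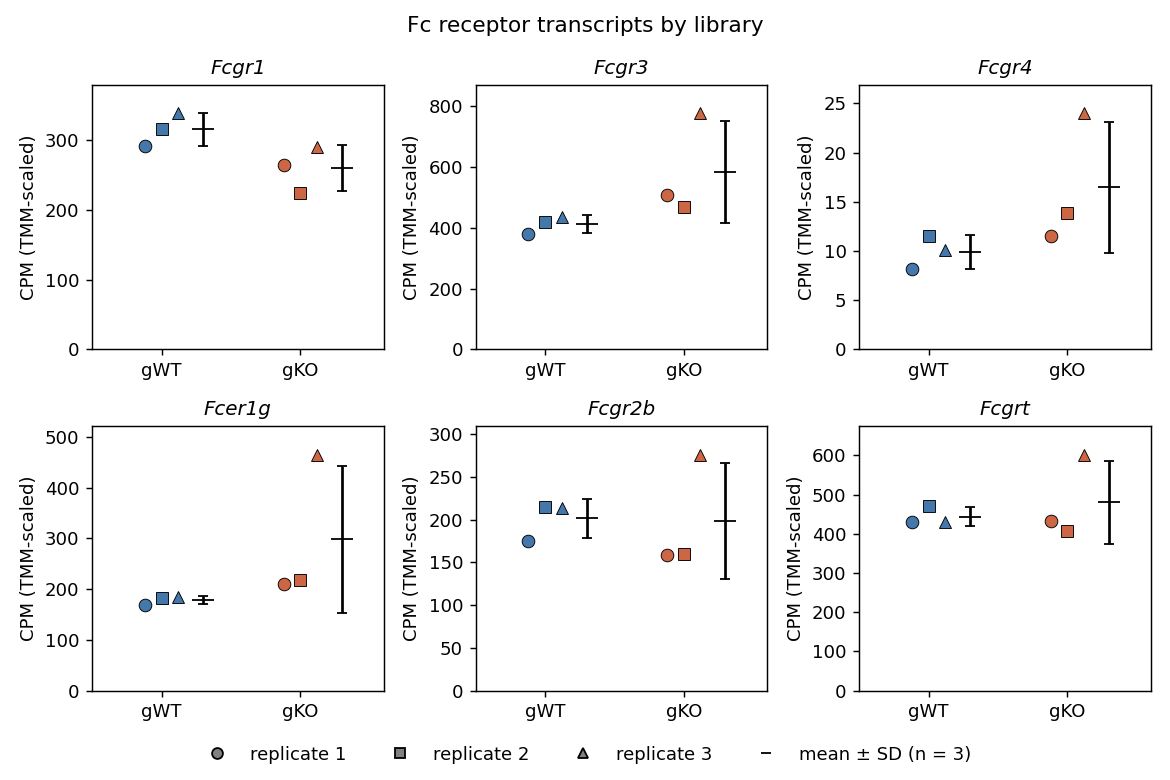
TMM-scaled CPM (vertical axis, from 0) of each Fc receptor gene in the 3 gWT and 3 gKO libraries; symbols give the replicate number, and the bar is the mean ± SD. In 5 of the 6 genes gKO replicate 3 is the highest of all libraries, the exception being Fcgr1, where all gKO libraries lie below all gWT libraries.

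The spread among gKO libraries came largely from replicate 3. It was 2.17 times the mean of gKO replicates 1 and 2 in Fcer1g, 1.89 times in Fcgr4, 1.73 times in Fcgr2b, 1.59 times in Fcgr3, 1.43 times in Fcgrt and 1.18 times in Fcgr1. The coefficient of variation was 12.6% to 48.5% in gKO and 4.69% to 17.0% in gWT. At its extremes this excess followed transcript length. Fcgr1, with the longest median coding transcript (2589 bases), had the smallest, and Fcer1g, with the shortest (678.5 bases, where 6.17% of tested genes are as short or shorter), had the largest. Fcgrt, at 1187 bases, had a smaller excess than the longer Fcgr2b and Fcgr3. The fitted trend with length in gKO replicate 3 was 0.35 on the log2 scale at the length of Fcer1g and -0.05 at that of Fcgr1. With this trend removed from all libraries, Fcer1g had a log2 fold change of 0.62 (SE 0.18, edgeR adjusted p = 0.170), Fcgr3 of 0.42 (SE 0.12, edgeR adjusted p = 0.177) and Fcgr1 of -0.27 (SE 0.13, edgeR adjusted p = 0.434).

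With gKO replicate 3 left out and the trend removed as well, a setting chosen after these values were seen, edgeR called 2 members higher and 2 lower, where 4.42% and 3.82% of all genes were called. The higher ones were Fcer1g (log2 fold change 0.36, edgeR adjusted p = 0.00432) and Fcgr3 (0.30, edgeR adjusted p = 0.00991). The lower ones were Fcgr1 (-0.39, edgeR adjusted p = 0.00849) and Fcgr2b (-0.30, edgeR adjusted p = 0.0406). The gamma chain and Fcgr3 thus stood on 1 side, and the high-affinity and inhibitory receptors on the other.

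**Figure D2:**
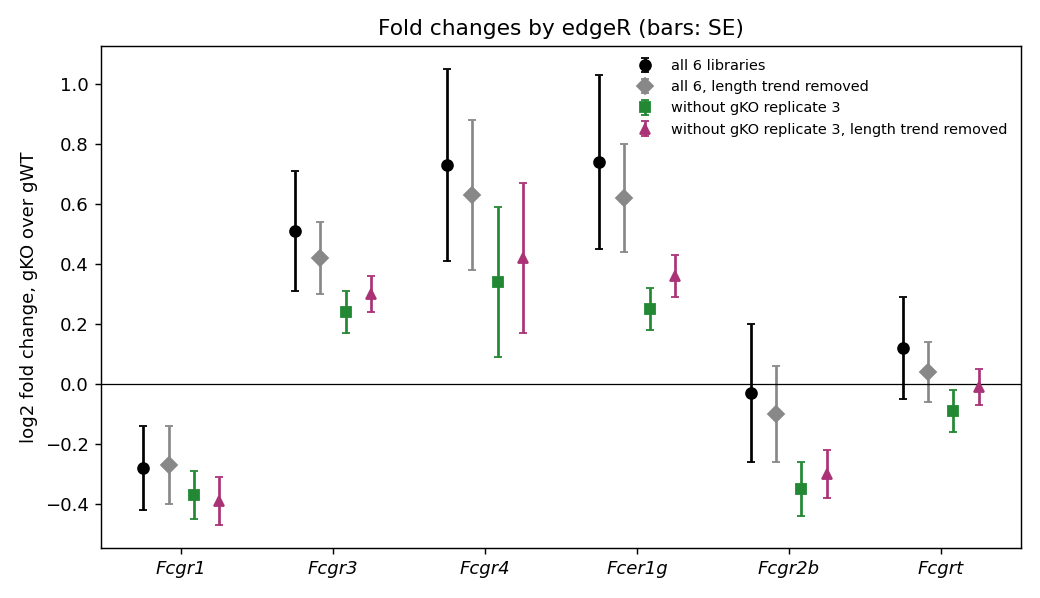
Log2 fold change of gKO over gWT by edgeR (vertical axis) for the 6 Fc receptor genes under 4 settings, with bars of 1 SE. Fcgr1 stays below 0 and Fcgr3, Fcgr4 and Fcer1g above 0 in each, while Fcgr2b moves from -0.03 to -0.35 when gKO replicate 3 is left out.

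Ratios within a library compare the receptors with each other free of differences in library scaling, but not of the length trend. In gKO replicate 3 the fitted trend was 0.28 on the log2 scale for Fcgr3, 0.22 for Fcgr2b and -0.05 for Fcgr1. Of the counts of Fcgr2b and Fcgr3 together, Fcgr3 took 76.3% (95% exact binomial interval 75.5% to 77.0%), 74.5% (73.6% to 75.4%) and 73.8% (73.1% to 74.5%) in gKO replicates 1, 2 and 3. In gWT it took 68.4% (67.5% to 69.4%), 66.0% (65.1% to 66.9%) and 67.1% (66.2% to 67.9%). The intervals cover counting error only. The means were 74.8% ± 1.28 in gKO and 67.2% ± 1.23 in gWT (SD, n = 3 each), and the groups did not overlap. The library that stood apart in level did not stand apart in this share. Reads from the shared run were assigned by estimation, so the size of the difference depends on that step.

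The sum of Fcgr2b and Fcgr3, which does not depend on it, differed less. It was 665, 629 and 1051 CPM in gKO and 554, 633 and 650 CPM in gWT. Tested as 1 feature it had a log2 fold change of 0.35 (SE 0.21, edgeR adjusted p = 0.603), and 0.07 (SE 0.07, edgeR adjusted p = 0.622) without gKO replicate 3. The low-affinity receptor transcripts of both kinds together were thus at similar levels in gKO replicates 1 and 2 and in gWT, with a different split.

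Per transcript length, the summed activating receptors Fcgr1, Fcgr3 and Fcgr4 exceeded Fcgr2b by a ratio of 4.76, 4.28 and 3.95 in gKO and 3.53, 3.15 and 3.33 in gWT. The means were 4.33 ± 0.407 and 3.34 ± 0.186 (SD, n = 3 each), a log2 difference of 0.37, with every gKO library above every gWT library. The ratio was chosen with these data known and has no test. Its level rests on the length taken for Fcgr2b: with the longest coding transcript of each gene the means were 9.96 ± 0.940 and 7.68 ± 0.429 (SD, n = 3 each), again with no overlap. From counts without length the means were 4.44 ± 0.507 and 3.67 ± 0.211 (SD, n = 3 each), a log2 difference of 0.27. There gKO replicate 3, at 3.95, lay just above gWT replicate 1, at 3.89. The shares that follow use the median lengths. Among the TPM of the 4 Fc gamma receptor genes, Fcgr3 made up 63.5% to 65.2% in gKO and 53.6% to 55.0% in gWT. Fcgr1 made up 12.5% to 17.1% in gKO and 20.8% to 21.7% in gWT, and Fcgr2b 17.4% to 20.2% and 22.1% to 24.1%. Fcgr4 contributed 1.24% to 2.12% in any library. Fcgr3 over Fcgr2b alone had mean TPM ratios of 3.42 ± 0.237 in gKO and 2.35 ± 0.132 in gWT (SD, n = 3 each). The higher ratio of summed activating receptors thus went with Fcgr3, and not with Fcgr1, whose share was lower. Both ratios rest on the estimated split between Fcgr2b and Fcgr3.

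**Figure D3:**
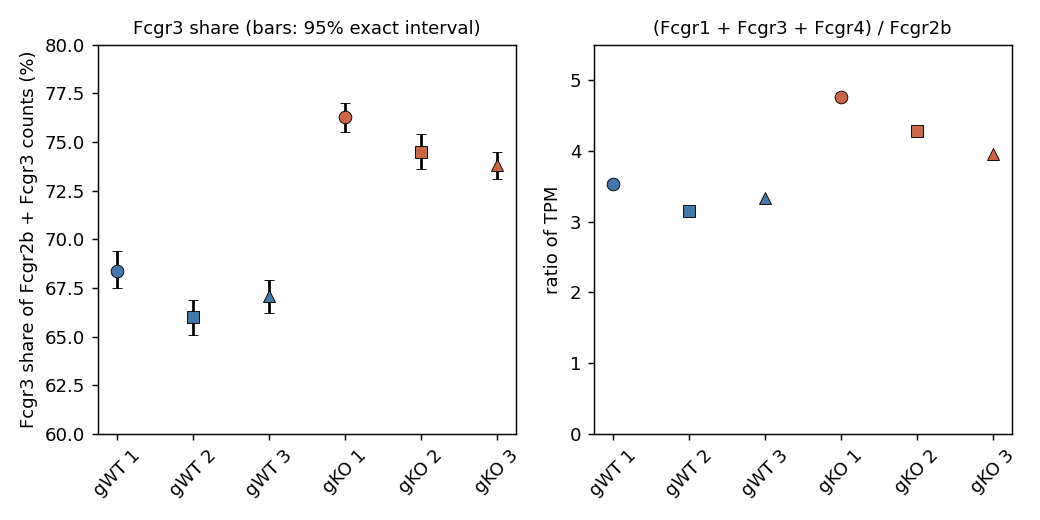
Left, the share of Fcgr3 in the counts of Fcgr2b and Fcgr3 (percent, axis from 60 to 80) with 95% exact intervals for counting error. Right, the ratio of TPM of the activating receptors to Fcgr2b (axis from 0), for each gWT and gKO library; in both panels the 3 gKO libraries lie above the 3 gWT libraries.

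The order of levels per length was alike at its lower end in both groups. In gWT the TPM means were 594 ± 25.3 for Fcgrt, 494 ± 23.7 for Fcgr3, 419 ± 9.76 for Fcer1g, 211 ± 18.4 for Fcgr2b, 194 ± 10.7 for Fcgr1 and 12.5 ± 1.81 for Fcgr4 (SD, n = 3 each). Fcgr2b and Fcgr1 did not differ beyond their spread. In gKO the first 3, Fcgr3 (652 ± 109), Fcer1g (640 ± 232) and Fcgrt (602 ± 61.9), overlapped each other, followed by Fcgr2b (192 ± 42.1), Fcgr1 (151 ± 11.1) and Fcgr4 (19.2 ± 5.51; SD, n = 3 each). These levels use the median length of the annotated coding transcripts. Fcgr2b has 4 of these, the longest 3544 bases, and with the longest as length its mean in gWT was 144 ± 11.6 TPM against 311 ± 16.6 TPM for Fcgr1 (SD, n = 3 each), which reverses this pair.

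The promoters of all 6 members were read for a motif of myeloid genes. In the 300 bases around each RefSeq start (250 before to 50 after, GRCm38.p6), GAGGAA, the core of sites bound by the myeloid factor PU.1, was searched on both strands. It occurred in those of Fcgr1, Fcgr3 and Fcgr4, each time as TTCCTC on the gene's strand, and in none of Fcgr2b, Fcer1g and Fcgrt. Of 32851 promoters, 28.3% held it. The matches are printed with 10 bases on either side, the motif in capitals, to show how alike their surroundings are.
Fcgr1 promoter: ggcaacttccTTCCTCttttctaatc
Fcgr3 promoter: gtccatttccTTCCTCtttttgtagt
Fcgr4 promoter: ggctatttacTTCCTCtcttctagtc
The first base of the match lay 55 bases before the start in Fcgr1, 22 before in Fcgr4, and 6 or 15 before the 2 annotated starts of Fcgr3. The 3 genes with a match are the activating receptors that bind IgG, of which Fcgr1 was lower and the other 2 were higher in gKO, none of them called with all 6 libraries.

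Fcgr1 is a known target of interferon gamma, so the genes of that response were listed beside it. Of 14 tested, edgeR called 0, with 0 higher and 3 lower at an unadjusted p under 0.05 and a median of -0.08. The receptor chain Ifngr2 had a log2 fold change of -0.34 (SE 0.12, edgeR adjusted p = 0.356). Leaving out gKO replicate 3, edgeR called 1 gene of the list higher, the kinase gene Jak1 (0.24), and 2 lower, among them Ifngr2 (-0.37).

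A list of 15 other genes held further immunoglobulin receptors, Fc-receptor-like genes, the galectin gene Lgals3, and B2m, whose values are given above with Fcgrt. Of these, 5 had 0 counts in all libraries, among them the mucosal receptor Pigr, and 5 were tested, with 0 called by edgeR and, at an unadjusted p under 0.05, 0 higher and 1 lower. Limma-voom with sample weights called that gene, Fcrls, lower. The abundant one with an Fc-receptor-like name was Fcrls, a marker of resting microglia. It had 1921, 1829 and 2099 CPM in gKO and 2364, 2456 and 2416 CPM in gWT, with a log2 fold change of -0.31 (SE 0.12, edgeR adjusted p = 0.386). Trim21, a cytosolic antibody receptor, had a log2 fold change of 0.49 (SE 0.22, edgeR adjusted p = 0.465). Fcrls was called lower when gKO replicate 3 was left out (-0.37, edgeR adjusted p = 6.24e-04).

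Among adaptors with a tyrosine activation motif and the receptors that use them, 0 of 12 tested were called by edgeR, 3 were higher and 0 lower at an unadjusted p under 0.05, 11 were positive and the median was 0.20. Trem1, an amplifier of inflammation on neutrophils and monocytes, had 11.3, 10.6 and 11.7 CPM in gKO and 4.54, 4.86 and 3.28 CPM in gWT. Its log2 fold change was 1.41 (SE 0.27, edgeR adjusted p = 0.0825), and it was called by DESeq2, by limma-voom with sample weights, and by edgeR without gKO replicate 3. The lectin receptor Clec4d, a partner of the gamma chain, had a log2 fold change of 1.50 (SE 0.43, edgeR adjusted p = 0.231).

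Below the receptors, list medians were near the 0.01 of all tested genes. Of 23 activating signalling genes, 0 were called by edgeR, DESeq2 or limma-voom and the median was 0.00. Syk, the kinase recruited by the gamma chain, had a log2 fold change of -0.04 (SE 0.20, edgeR adjusted p = 0.964). The smallest p in this list was that of Bcl10, an adaptor leading to NF-kB (0.58, SE 0.21, edgeR adjusted p = 0.356). In the fit without gKO replicate 3, Gab2 and Plcg2 were called higher and Lat2 lower.

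On the inhibitory side, edgeR called 0 of 13, with a median of -0.03. Inpp5d encodes SHIP1, the lipid phosphatase recruited by the Fcgr2b receptor, and had a log2 fold change of 0.04 (SE 0.21, edgeR adjusted p = 0.961). The phosphatase gene Ptpn6, which encodes SHP-1, had -0.05 (SE 0.11, edgeR adjusted p = 0.918). The inhibitory receptor gene Lilrb4a had 20.5, 19.8 and 26.7 CPM in gKO and 8.96, 10.7 and 11.7 CPM in gWT. Its log2 fold change was 1.09 (SE 0.22, edgeR adjusted p = 0.0985), and DESeq2 and limma-voom with sample weights called it higher. Leaving out gKO replicate 3, edgeR called Inpp5d, Lilrb4a, Cbl and Pag1 higher and 0 lower, where it called 3.99% and 3.82% of all genes.

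The oxidase and engulfment genes, which act when antibody-coated targets are taken up, had a median of 0.03 with 0 of 16 called by edgeR, DESeq2 or limma-voom. At an unadjusted p under 0.05, edgeR had 1 activating gene higher, 1 inhibitory gene in each direction and 0 oxidase and engulfment genes. Without gKO replicate 3, Elmo1 was called higher and Coro1a and Cyba lower.

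**Figure D4:**
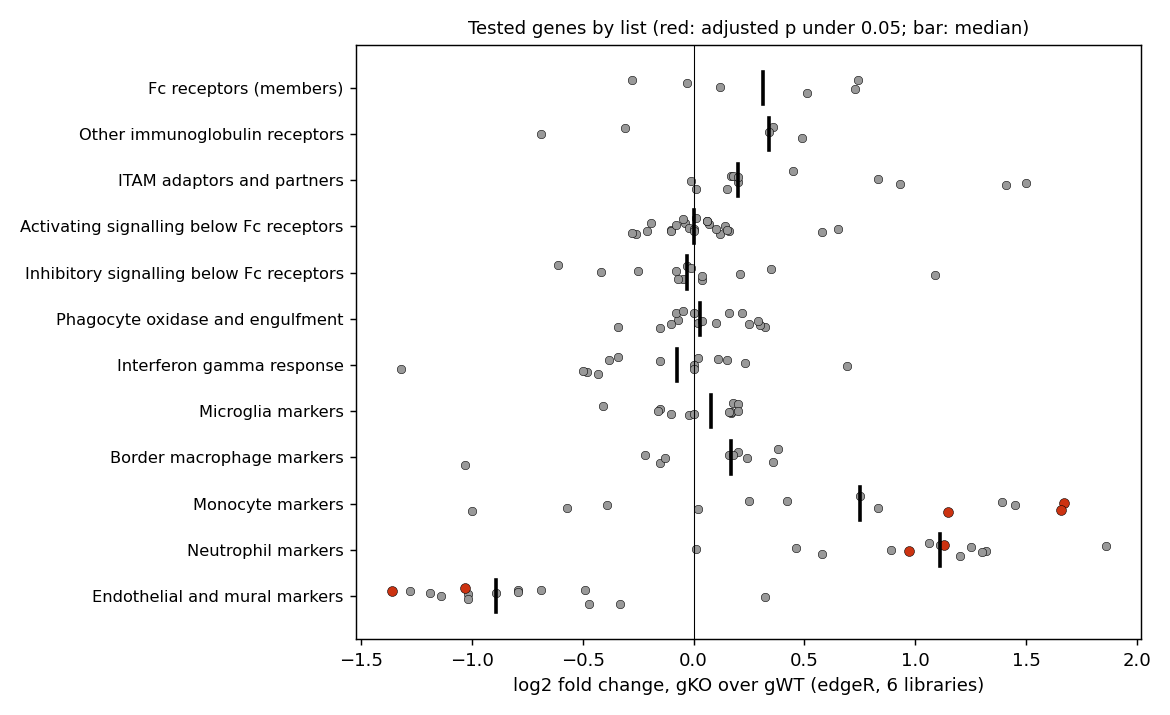
Log2 fold change of gKO over gWT (horizontal axis, edgeR with all 6 libraries) of each tested gene in the lists named at left; red points passed an adjusted p of 0.05 and the black bar is the list's median. The 6 Fc receptor genes have a median of 0.31 and hold no red point, whereas the neutrophil list has a median of 1.11 and the endothelial and mural list one of -0.89. Without gKO replicate 3, which is not drawn here as a setting, these medians were 0.08, 0.88 and -0.66.

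The genes most like each member were found by the Pearson correlation of log2 CPM over the 6 libraries, among 8858 genes with a mean of at least 10 CPM. With 6 points that share the excess of gKO replicate 3, these are descriptions only. For Fcgr3 they were Tmed10 (r = 0.999), Rhog (0.997) and Psma6 (0.995). For Fcer1g they were Rapsn (0.997), Mt1 (0.996) and Srsf5 (0.996), and for Fcgrt Sdhb (0.997), Sft2d1 (0.996) and Ldhb (0.996). Fcgr2b was most like Tyrobp (0.997), which was also highest in gKO replicate 3, then Rps7 and Nip7 (0.994 each). Fcgr4 was followed by S100a9 and Wsb1 (0.995 each) and Snx5 (0.993). Fcgr1 was most like H1f0 (0.990), Apmap (0.989) and Cracr2b (0.987).

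The authors' deposited table of genes higher in gKO lists 75 genes and that of lower genes 201, and 0 of the 6 Fc receptor genes are in either.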

How the data were processed

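Per the file headers, the main table that the authors deposited gives expected counts by gene symbol, 1 column for each of 6 libraries. Tools listed in the submitters' processing notes are STAR 2.7.9a, RSEM and DESeq2, and the builds are GRCm38 and mm10, without roles; neither annotation nor strandedness is given in the sources used here. The authors' deposited lists of changed genes carry, per the file headers, a mean signal, log2 fold changes, their errors and statistics (scores) and p-values; their gene names alone were used.

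Rounded counts entered edgeR 4.0.16 (R 4.3.3) with TMM scaling, the default low-count filter and a robust quasi-likelihood test of genotype; Benjamini-Hochberg adjustment covered all 13403 genes, with calls under 0.05. The SE was taken as the size of the log2 fold change over the root of F. TPM used median coding transcript lengths of GENCODE M21 (GRCm38), matched for 23365 symbols by name and 678 by synonym. Sequences came from GENCODE M21 transcripts and RefSeq tables, aligned with Biopython 1.88. Alternatives used DESeq2 1.42.0 and limma 3.58.1. The test was checked on simulated data. Members, lists and tests were chosen with earlier results of these data known. The genes named are all members, up to 4 called genes or the 2 of smallest p per list, a few fixed genes and those most alike, of which the text gives a part (1 is not reported here), and the genes called without gKO replicate 3, named after their values were seen.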

Additional observations from a re-analysis of the deposited data

How the results depend on the processing

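Library gKO replicate 3 decided most values. Without it, edgeR called 551 genes higher and 528 lower instead of 53 and 31, and among the Fc receptors 1 higher and 2 lower: Fcgr1 (-0.37), Fcgr2b (-0.35) and Fcer1g (0.25), while Fcgrt turned to -0.09. With the length trend also removed, 610 and 528 genes and 2 and 2 Fc receptors were called, namely Fcgr1 (-0.39), Fcgr2b (-0.30), Fcgr3 (0.30) and Fcer1g (0.36), and Fcgrt was -0.01. Over single libraries left out, the members called ranged from 0 to 1 higher and 0 to 2 lower, all genes called from 0 to 551 higher and 0 to 528 lower, Fcgr1 from -0.37 to -0.19, Fcgr2b from -0.35 to 0.11, Fcgr3 from 0.24 to 0.64, Fcgr4 from 0.34 to 0.93, Fcer1g from 0.25 to 0.93 and Fcgrt from -0.09 to 0.22. Fcgr2b turned positive without gKO replicate 1 (0.11) or 2 (0.10) or gWT replicate 2 or 3 (0.02 each). A group left with 2 libraries still shares 1 fitted spread with the other.

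All genes called higher and lower were 179 and 235 with DESeq2, 261 and 152 with limma-voom and quality weights (Fcgrt -0.04), 93 and 73 with the length trend removed, and 47 lower with no filter on low counts; the causes were not tested. With the replicate number as a block, 11 were higher and 7 lower. Same-numbered libraries did not deviate together (correlations 0.11, -0.11 and 0.02), so the numbers were not taken as pairs. Fcgr1, Fcgr3, Fcgr4 and Fcer1g kept their direction under all 16 alternatives run. Member counts were lowest for Fcgr4, at 138 to 339 per library.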
